A study of Mus musculus with 110 samples.

Results

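A group of 10 mouse genes whose products astrocytes are known to use to build or remove synapses was followed by name through every library of the series: the thrombospondins Thbs1, Thbs2 and Thbs4, the SPARC family members Sparc and Sparcl1 (hevin), the glypicans Gpc4, Gpc5 and Gpc6, and the engulfment receptors Megf10 and Mertk. They are 10 of the 24056 gene rows used, the rule that takes them goes by name and uses no measured value, and all 10 passed the filter on low counts in every fit. The group itself was chosen with earlier results of these data known.

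As background, astrocytes shape synapses through secreted proteins and through phagocytosis. Thrombospondins are matrix proteins that promote the formation of excitatory synapses through the calcium channel subunit encoded by Cacna2d1, hevin links presynaptic neurexin to postsynaptic neuroligin, and SPARC counters the synapse-forming action of hevin. Glypicans are heparan sulfate proteoglycans held at the cell surface by a lipid anchor; Gpc4 and Gpc6 released by astrocytes bring AMPA receptors to the synapse. Megf10 and Mertk are receptors through which astrocytes take up synaptic material, and Mertk is also a phagocytic receptor of microglia. The R6/2 mouse carries a transgene with the first part of the human huntingtin gene and an expanded CAG repeat, and is a model of Huntington's disease.

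The study pulled down ribosome-bound RNA through an HA tag (RiboTag, the IP) from astrocytes or from neurons and sequenced it, in most sets beside tissue RNA (the Input). Its aim, as the design text gives it, was to lower mutant huntingtin in 1 cell type at a time with a zinc-finger protein (ZFP) repressor. The 4 conditions are R6/2 with the ZFP (RZ), R6/2 with Delta, the control AAV (RD), NCAR with the ZFP (NZ) and NCAR with Delta (ND). The 4 sets are MG and n_ZFP_a_Rpl, whose labelled cell type is astrocytes, and hSyn and n_ZFP_n_Rpl, whose labelled cell type is neurons. All libraries, NCAR included, carry the strain label R6/2 (Jax), and NCAR is not spelled out there. All animals received an AAV, so no untreated group was measured. The labels do not say which cell type carried the ZFP in a set, which promoter drove it, which ribosomal protein was tagged, or the age, the tissue and whether a library is 1 animal or a pool. P-values therefore measure the spread between these libraries. The MG IP has 4 libraries in each condition and no Input was analysed here. In IP and Input alike, the hSyn set has 4 RZ, 3 RD, 4 NZ and 5 ND libraries, the n_ZFP_a_Rpl set has 4, 3, 4 and 4 in that order, and the n_ZFP_n_Rpl set has 4 of each.

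Across the 63 IP and 47 Input libraries, the assigned counts of a library ran between 34.8 M and 72.6 M for the IP and between 26.4 M and 44.2 M for the Input. The labelled cell types were checked in the ND libraries. Aldh1l1, an astrocyte marker, was at 229 to 291 CPM (read counts scaled to the size of the library, after TMM scaling) in the MG IP and 219 to 282 CPM in the n_ZFP_a_Rpl IP, whose Inputs had 62.3 to 76.3 CPM. The neuron IPs held 51.8 to 79.6 CPM of Aldh1l1 in the hSyn set (Input 75.8 to 90.6) and 35.1 to 52.3 CPM in the n_ZFP_n_Rpl set (Input 65.1 to 78.6), so astrocyte RNA was not absent there. Gfap, another astrocyte marker, did not follow this order. It was at 354 to 682 (MG), 420 to 566 (n_ZFP_a_Rpl), 502 to 1420 (hSyn, Input 512 to 1210) and 154 to 420 CPM (n_ZFP_n_Rpl, Input 213 to 370). The astrocyte markers summed to 21600 to 27300, 19400 to 23700, 5480 to 8110 and 3110 to 4100 CPM in those IPs. Snap25, a neuronal gene, was at 2310 to 2550 CPM (hSyn, Input 1750 to 2020) and 2540 to 3650 CPM (n_ZFP_n_Rpl, Input 1660 to 2580) in the neuron IPs. In the astrocyte IPs it was still at 1660 to 1780 CPM (MG) and 1510 to 1580 CPM (n_ZFP_a_Rpl, Input 1430 to 1650). Snap25 was thus not depleted in the n_ZFP_a_Rpl IP. There the general neuron markers summed to 3330 to 3460 CPM (Input 2980 to 3340). The striatal projection neuron markers summed to 7310 to 8400 CPM (Input 8900 to 9690). No 2 libraries of a group agreed within sampling noise.

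In the GRCm38.p6 annotation of RefSeq, Thbs1 lies at chr2:118111876-118127133, Thbs2 at chr17:14665500-14694262, Thbs4 at chr13:92751586-92794818, Sparc at chr11:55394159-55420080 and Sparcl1 at chr5:104079108-104114088. Gpc4 lies at chrX:52051007-52164923, and Gpc5 and Gpc6 are neighbouring long genes at chr14:115092201-116525192 and chr14:116924920-117979529. Mertk lies at chr2:128698915-128803162. The counts are per gene and cannot be assigned to an exon, an intron or an untranslated region.

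The RefSeq promoter table (GRCm38.p6, 250 bases before to 50 bases after the gene's start) holds 6 of the 10 genes. The promoters of Thbs2, Sparc and Mertk are shown because Sparc and Thbs2 gave large differences between R6/2 and NCAR and Mertk the largest difference of the 10 in IP over Input between the n_ZFP_a_Rpl and n_ZFP_n_Rpl sets. They lie at chr17:14694213-14694512 (minus strand), chr11:55420031-55420330 (minus strand) and chr2:128698665-128698964 (plus strand). Capitals mark matches on either strand to any of 5 searched motifs. They are the TATA box, spelled TATAAA, the GC box, spelled GGGCGG, the CCAAT box, an AP-1 site spelled TGANTCA and an Egr site spelled GCGNGGGCG, and the Egr site can share bases with the GC box.
Thbs2: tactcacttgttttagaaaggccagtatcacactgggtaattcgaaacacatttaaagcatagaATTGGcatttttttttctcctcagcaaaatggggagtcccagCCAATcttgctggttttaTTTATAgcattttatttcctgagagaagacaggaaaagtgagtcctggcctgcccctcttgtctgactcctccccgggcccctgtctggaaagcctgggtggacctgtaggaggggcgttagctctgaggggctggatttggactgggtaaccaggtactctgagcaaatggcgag
Sparc: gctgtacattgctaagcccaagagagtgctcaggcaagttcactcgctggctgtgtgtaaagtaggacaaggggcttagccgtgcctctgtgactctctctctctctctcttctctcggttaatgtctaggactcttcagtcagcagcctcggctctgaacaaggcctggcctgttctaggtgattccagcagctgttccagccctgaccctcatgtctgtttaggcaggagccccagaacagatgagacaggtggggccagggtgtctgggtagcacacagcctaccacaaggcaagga
Mertk: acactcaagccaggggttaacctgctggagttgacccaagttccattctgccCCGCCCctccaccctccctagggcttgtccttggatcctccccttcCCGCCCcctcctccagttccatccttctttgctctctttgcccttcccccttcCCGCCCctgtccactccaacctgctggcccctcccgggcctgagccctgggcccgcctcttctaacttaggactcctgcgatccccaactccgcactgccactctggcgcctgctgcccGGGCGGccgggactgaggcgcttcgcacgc
The Thbs2 promoter has 48.3% G and C, 1 match to the TATA box and 2 to the CCAAT box. The Sparc promoter has 55.3% G and C and no match to any of the 5 motifs in this window. The Mertk promoter has 66% G and C and 4 matches to the GC box. Among all 32851 promoters of the table, 13.6% hold the TATA box, 37.4% the CCAAT box, 35.7% the GC box, 7.81% the AP-1 site and 5.55% the Egr site. A match is a run of letters, and binding was not measured.

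Levels are given as CPM throughout and are not divided by gene length, so they are compared between libraries for 1 gene and never between genes. In the ND astrocyte IPs, Sparcl1 averaged 6766 ± 424 CPM (MG, SD, n = 4) and 4130 ± 367 CPM (n_ZFP_a_Rpl, n = 4), against 1393 ± 121 CPM (hSyn, n = 5) and 869 ± 78.9 CPM (n_ZFP_n_Rpl, n = 4) in the ND neuron IPs. Mertk averaged 107 ± 20.4 and 115 ± 10.4 CPM in the same astrocyte sets, against 23.2 ± 5.73 and 9.53 ± 1.06 CPM in the same neuron sets. The other members with higher levels in both astrocyte sets were Sparc, Gpc5, Gpc6, Megf10, Gpc4 and Thbs4. For Gpc5 the ND means were 199 ± 15.1 and 132 ± 12.7 CPM in the astrocyte sets, against 40.7 ± 3.65 and 17.2 ± 2.6 CPM in the neuron sets. For Megf10 they were 132 ± 16.4 and 138 ± 13.5 CPM against 43.3 ± 2.55 and 32.4 ± 5.24 CPM. Gpc4 stood nearer, at 9.75 ± 1.09 and 12.7 ± 1.32 CPM in the astrocyte sets and 3.41 ± 0.607 and 8.86 ± 3.51 CPM in the neuron sets. Between MG and n_ZFP_n_Rpl its means lie within 1 SD of each other.

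Thbs1 and Thbs2 did not follow this order. Thbs1 averaged 1.36 ± 0.177 (MG) and 1.76 ± 0.624 CPM (n_ZFP_a_Rpl) in the ND astrocyte IPs, against 2.75 ± 0.707 (hSyn) and 1.38 ± 0.521 CPM (n_ZFP_n_Rpl) in the ND neuron IPs. Thbs2 averaged 4.66 ± 0.539 and 4.62 ± 0.763 CPM in those astrocyte sets, against 7.63 ± 4.02 and 7.23 ± 2.16 CPM in those neuron sets. The hSyn mean of Thbs1 lay above those of MG and n_ZFP_n_Rpl by more than the sum of both SDs, and the other means of the 2 genes overlap within their spread. Differences of level between sets were not tested.

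**Figure D1:**
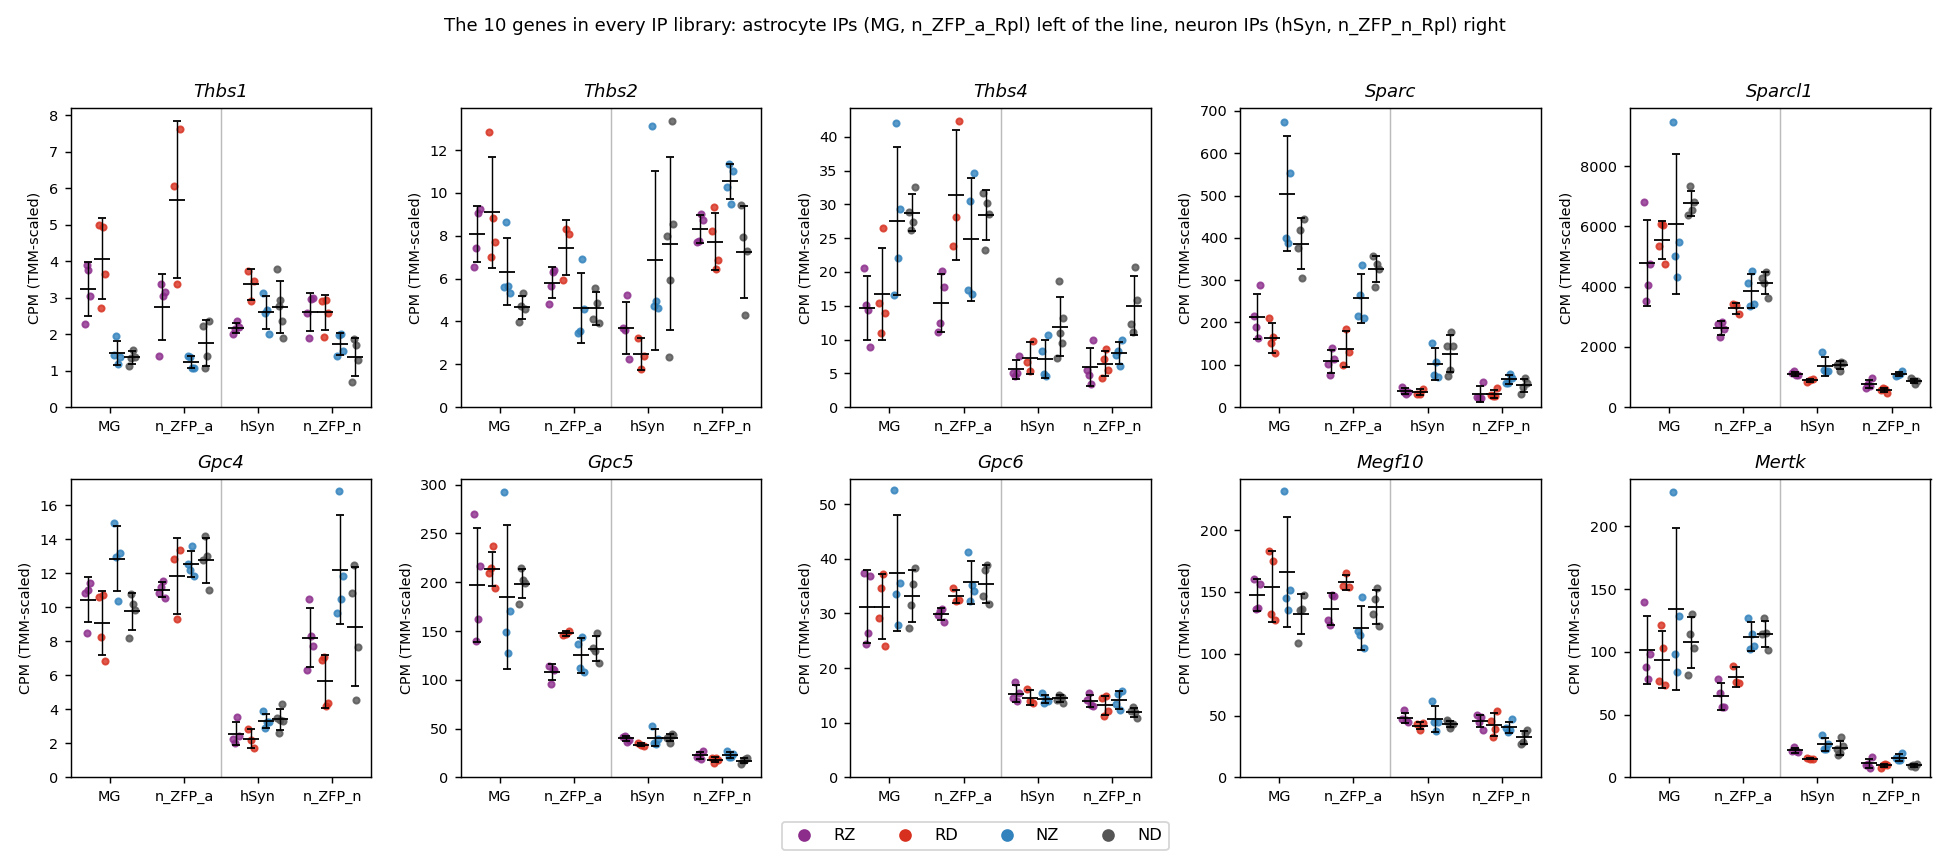
Level of each of the 10 genes in every IP library, in CPM after TMM scaling (vertical axis, 1 panel a gene), by set and by condition (RZ, RD, NZ, ND from left to right). Points are libraries and bars are the mean ± SD of a group; the mean of Sparc is lower in RD than in ND in all 4 sets, and 8 genes have higher ND means in both astrocyte sets on the left than in either neuron set on the right.

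IP was compared with Input over all conditions, with a test for a change above 2-fold (edgeR's glmTreat on the quasi-likelihood fit, Benjamini-Hochberg adjusted over all genes, which all adjusted p-values here are). The astrocyte pulldown was rich in 5 of the 10 genes beyond 2-fold, where 4.1% of all genes were called higher. In the n_ZFP_a_Rpl set these were Gpc4 (log2 fold change 1.92 ± 0.07, SE, adjusted p = 1.33e-13), Sparcl1 (1.79 ± 0.04, adjusted p = 9.04e-17), Gpc5 (1.74 ± 0.04, adjusted p = 1.68e-15), Thbs4 (1.72 ± 0.13, adjusted p = 6.58e-06) and Mertk (1.22 ± 0.05, adjusted p = 7.51e-05). Megf10 lay at the boundary with 1.08 ± 0.05 (adjusted p = 0.083), and passed with IP and Input paired by library number (replicate block, 1.07, adjusted p = 0.0285). Gpc6 (0.83), Sparc (0.73), Thbs2 (0.38) and Thbs1 (0.32) did not pass a 2-fold minimum. Of 12 astrocyte markers, 11 were higher in the same test.

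The neuron pulldowns were poor in some of these genes. In the hSyn set Sparc alone was called lower than the Input beyond 2-fold, by a log2 change of -1.35 ± 0.12 (adjusted p = 0.00939), where 11.2% of all genes were. In the n_ZFP_n_Rpl set Mertk, at -1.73 ± 0.08 (adjusted p = 1.67e-09), and Sparc, at -1.57 ± 0.14 (adjusted p = 0.000203), were called lower, where 13.6% of all genes were. Of the 12 astrocyte markers 1 and 3 were lower there. Gpc4 had positive changes in both neuron sets, 0.74 and 0.52, short of the 2-fold minimum.

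The ratio of IP over Input was then tested between the astrocyte and neuron sets that share the name stem, n_ZFP_a_Rpl against n_ZFP_n_Rpl, again above 2-fold. Cell type and set cannot be told apart in this test. The ND Inputs of the sets also differed in Slc17a7, a marker of cortical excitatory neurons, with 28.7 to 86.7 CPM (n_ZFP_a_Rpl) and 172 to 624 CPM (n_ZFP_n_Rpl). The ratio was higher in the astrocyte set for 8 of the 10 genes, where 7.69% of all genes were. The differences on the log2 scale were 2.96 ± 0.10 for Mertk, 2.60 ± 0.07 for Gpc5, 2.31 ± 0.17 for Sparc, 2.21 ± 0.07 for Sparcl1, 1.86 ± 0.19 for Thbs4, 1.79 ± 0.08 for Megf10, 1.41 ± 0.17 for Gpc4 (adjusted p = 0.0253) and 1.35 ± 0.06 for Gpc6. The Gpc4 call was lost in DESeq2 (adjusted p = 0.163) and without Input RD library 1 of the n_ZFP_a_Rpl set (adjusted p = 0.0526). Thbs1 (0.93 ± 0.19) and Thbs2 (0.42 ± 0.14) did not pass. Microglia, which use Mertk too, left little signal in the pulldowns. The summed level of 10 microglial markers was 27.2 to 51.3 CPM over all IP libraries, against 440 to 1910 CPM over all Inputs.

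**Figure D2:**
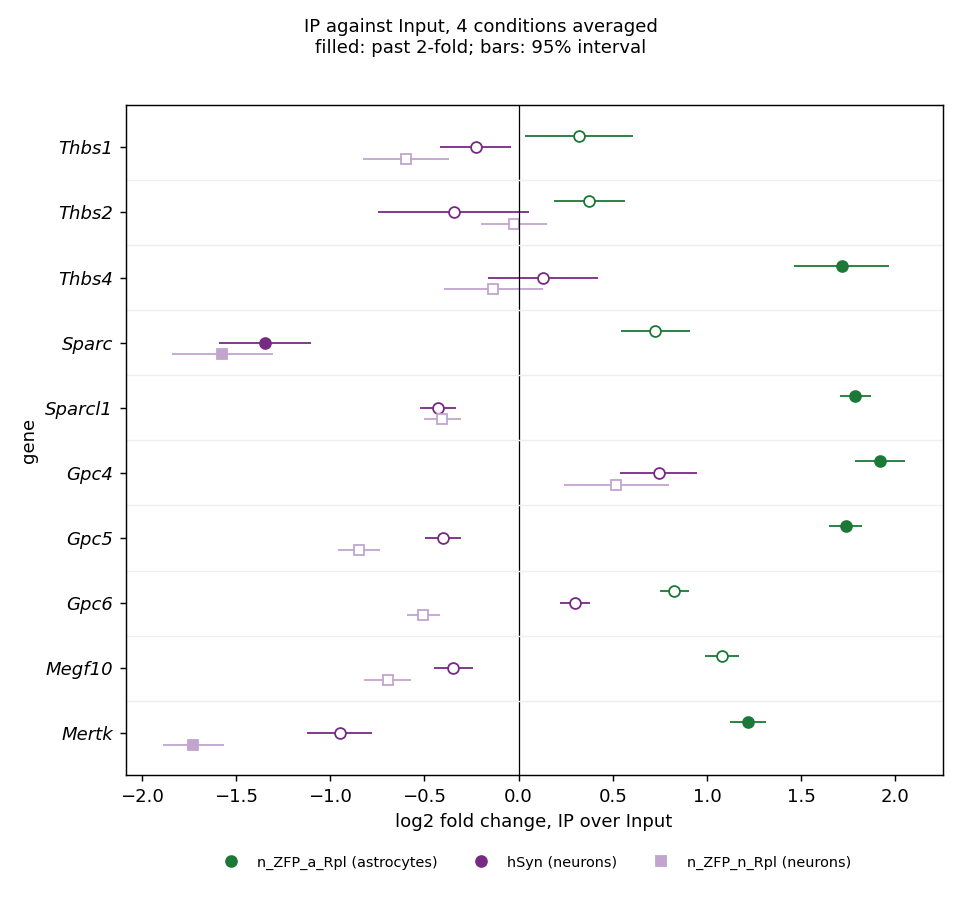
Log2 fold change of IP over Input for each gene in the 3 sets with an Input. Bars are 95% intervals and filled points passed the test for a change above 2-fold; the n_ZFP_a_Rpl point lies to the right of those of both neuron sets for each of the 10 genes, by least for Thbs2.

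R6/2 with Delta was compared with NCAR with Delta in each set and fraction (edgeR's robust quasi-likelihood test on a fit of all 4 conditions). The clearest differences in the astrocyte pulldowns were higher Thbs1 and Thbs2 and lower Sparc in RD, in both astrocyte sets. In the neuron pulldowns Sparcl1 was lower in both sets, and the thrombospondins differed from set to set. In the MG IP 2 genes were higher and 1 lower of 10, where 17.4% and 16.2% of all genes were. The n_ZFP_a_Rpl IP had 2 higher and 3 lower (20.6% and 24.7% of all genes), the hSyn IP 0 higher and 5 lower (25.4% and 25.5%), and the n_ZFP_n_Rpl IP 2 higher and 2 lower (25.2% and 26.2%). Such counts are near the background in both astrocyte sets and in the n_ZFP_n_Rpl set, so the results are those of single genes. The median log2 change of the 10 genes was -0.09, 0.02, -0.62 and 0.03 in those 4 IPs, against 0.04, -0.00, -0.00 and -0.00 for all genes.

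Thbs1, a thrombospondin also made by vascular and connective tissue cells, had 4.98, 2.71, 4.95 and 3.64 CPM in the MG RD libraries, against 1.13, 1.35, 1.57 and 1.39 CPM in the MG ND libraries. Every RD library lay above every ND library. The difference was 3.00-fold, a log2 change of 1.58 ± 0.23 (adjusted p = 7.4e-05). In the n_ZFP_a_Rpl IP the RD libraries had 6.06, 3.37 and 7.62 CPM, against 2.21, 1.08, 1.39 and 2.36 CPM in ND. The groups were again apart, by 3.22-fold (log2 change 1.69 ± 0.33, adjusted p = 0.000691). Both calls were kept under every alternative.

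In the neuron sets Thbs1 gave unlike results. Libraries of the n_ZFP_n_Rpl IP had 2.92, 1.93, 2.95 and 2.59 CPM in RD, against 0.685, 1.86, 1.69 and 1.29 CPM in ND. The groups did not overlap, but RD library 2 lay close to ND library 2. Thbs1 was called higher there (log2 change 0.91 ± 0.25, adjusted p = 0.00657). That call was lost without RD and ND libraries 3 and 4 (log2 change 0.94, adjusted p = 0.0779), which have less of the cortical neuron gene Slc17a7. In the hSyn IP the RD libraries had 3.74, 2.90 and 3.46 CPM, within the ND range of 1.89 to 3.79 CPM. The tissue Inputs had higher Thbs1 in RD in the n_ZFP_a_Rpl set (log2 change 1.40 ± 0.23, adjusted p = 6.2e-05) and likewise in n_ZFP_n_Rpl (0.81 ± 0.20, adjusted p = 0.00318), while the hSyn Input was not called.

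Thbs2, the closest relative of Thbs1, had 12.8, 7.02, 8.82 and 7.69 CPM in the MG RD libraries, against 3.99, 4.74, 5.31 and 4.59 CPM in ND. All RD libraries were above all ND libraries, by 1.95-fold (log2 change 0.97 ± 0.20, adjusted p = 0.00136). In the n_ZFP_a_Rpl IP the values were 5.95, 8.30 and 8.08 CPM in RD, against 4.11, 5.57, 4.88 and 3.91 CPM in ND. The groups were apart by a small gap between RD library 1 and ND library 2. They differed by a log2 change of 0.69 ± 0.21 (adjusted p = 0.0162), and the call was lost without RD library 2 (adjusted p = 0.0634) or RD library 3 (adjusted p = 0.0577).

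In the hSyn IP Thbs2 lay the other way, with 3.24, 1.77 and 2.40 CPM in RD, against 7.96, 2.35, 5.92, 13.4 and 8.56 CPM in ND. The ND values were widely spread and ND library 1, at 2.35 CPM, lay among the RD libraries. The log2 change was -1.63 ± 0.52 (adjusted p = 0.0179), and the call was lost without RD library 2 (-1.44, adjusted p = 0.0768) or RD library 3 (-1.61, adjusted p = 0.0562). In the n_ZFP_n_Rpl IP the RD libraries had 8.22, 9.35, 6.43 and 6.89 CPM and the ND libraries 9.41, 7.96, 4.28 and 7.28 CPM, with full overlap. The Input of the same set was higher in RD, with 13.7, 16.3, 12.8 and 13.4 CPM against 9.66, 6.96, 4.82 and 5.14 CPM in ND (log2 change 1.08 ± 0.17, adjusted p = 6.09e-05). The n_ZFP_a_Rpl Input was also higher (0.82 ± 0.15, adjusted p = 0.000221).

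Fibroblasts and vessel walls also make thrombospondins, so their markers are given beside these genes. In the MG IP the summed level of the fibroblast markers was 4.67 to 8.31 CPM in RD and 2.79 to 6.03 CPM in ND, with 2 of 4 tested markers higher and 1 lower. In the n_ZFP_a_Rpl IP it was 7 to 13.2 CPM in RD and 5.5 to 7.57 CPM in ND, with 1 of 4 higher. In the n_ZFP_n_Rpl Input it was 27.2 to 51.4 CPM in RD and 19.7 to 27.1 CPM in ND, with 2 of 5 higher. The fibroblast gene Lum had no count in 5 MG and 6 n_ZFP_a_Rpl IP libraries. Of 10 endothelial and mural markers 0 were called in the MG IP, and 4 were higher and 1 lower in the n_ZFP_a_Rpl IP. Their part in the thrombospondin results was not tested.

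Thbs4, the thrombospondin with higher levels in the astrocyte sets, behaved differently. In the n_ZFP_n_Rpl IP it had 4.35, 7.06, 8.66 and 5.54 CPM in RD, against 12.2, 11.1, 20.7 and 15.9 CPM in ND. All RD libraries were below all ND libraries, with a log2 change of -1.23 ± 0.30 (adjusted p = 0.00329). The call was lost without RD and ND libraries 3 and 4 (-1.03, adjusted p = 0.0744). Lower Thbs4 in RD was also called in the Inputs of the n_ZFP_n_Rpl set (-0.96 ± 0.20, adjusted p = 0.00116) and the hSyn set (-0.86 ± 0.25, adjusted p = 0.0112).

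In the MG IP Thbs4 had 15.3, 10.9, 26.6 and 14.0 CPM in RD, against 28.8, 26.2, 27.5 and 32.5 CPM in ND. RD library 3 alone reached the ND range. The log2 change of -0.78 ± 0.31 was not called (adjusted p = 0.0618) and was -1.11 without RD library 3 (adjusted p = 0.0111). It was also called by DESeq2 (-0.80, adjusted p = 0.0174), in the replicate block (-0.87, adjusted p = 0.0304) and with only the MG RD and ND libraries in the fit (adjusted p = 0.0355). In the n_ZFP_a_Rpl IP the RD libraries had 23.9, 28.2 and 42.3 CPM and the ND libraries 31.7, 23.3, 30.3 and 28.6 CPM, which overlap (log2 change 0.14, adjusted p = 0.714). The hSyn IP gave -0.71 (adjusted p = 0.0898), and was called in the replicate block (-0.73, adjusted p = 0.0375) and without ND library 0 (adjusted p = 0.0454) or RD library 3 (-0.99, adjusted p = 0.0486).

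Sparc, the secreted matrix protein that counters hevin, was lower in RD in 3 of the 4 IPs. In the MG IP it had 209.6, 151, 166 and 127 CPM in RD, against 377, 419.6, 306 and 444 CPM in ND. The RD libraries all lay below the ND libraries, by 2.37-fold (log2 change -1.24 ± 0.21, adjusted p = 0.000329). The n_ZFP_a_Rpl IP had 100.1, 184 and 131 CPM in RD, against 356, 284, 339 and 326 CPM in ND. The separation was of the same size, 2.36-fold (-1.24 ± 0.24, adjusted p = 0.00105).

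The hSyn IP had 32.1, 30.4 and 43.5 CPM of Sparc in RD, against 145, 74.6, 87.7, 178 and 145 CPM in ND. No library overlapped and the fold was 3.57 (log2 change -1.84 ± 0.33, adjusted p = 0.000518). In the n_ZFP_n_Rpl IP it had 27.5, 26.8, 26.6 and 44.5 CPM in RD, against 31.8, 48.1, 68.6 and 56.7 CPM in ND. RD library 4 lay among the ND libraries there. The log2 change of -0.71 ± 0.32 was not called (adjusted p = 0.0758), and was called without ND library 1 (-0.88, adjusted p = 0.0353) or RD library 4 (-0.93, adjusted p = 0.0318), in the replicate block (adjusted p = 0.0257) and with the 2 groups alone (adjusted p = 0.0466). The Inputs gave -0.94 ± 0.16 (hSyn, adjusted p = 0.000208), -0.57 ± 0.12 (n_ZFP_a_Rpl, adjusted p = 0.00153) and -0.44 (n_ZFP_n_Rpl, adjusted p = 0.0501). The last was called by DESeq2 (adjusted p = 0.0115), with RLE factors (0.0425), with the 2 groups alone (0.0257) and without ND library 1 (0.0215).

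Sparcl1 encodes hevin. In the n_ZFP_n_Rpl IP it had 564, 631, 588 and 477 CPM in RD, against 962, 889, 772 and 854 CPM in ND. No library overlapped, at a log2 change of -0.62 ± 0.11 (adjusted p = 0.000339). The hSyn IP had 848, 886 and 945 CPM in RD, against 1408, 1425, 1186, 1500.5 and 1448 CPM in ND. The groups were again apart, by -0.64 ± 0.12 (adjusted p = 0.000381).

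The astrocyte IPs showed smaller differences of Sparcl1. The n_ZFP_a_Rpl IP had 3411, 3376 and 3079 CPM in RD, against 4288, 4136, 4476 and 3621 CPM in ND, with no overlap. The log2 change was -0.33 ± 0.10 (adjusted p = 0.0169), and the call was lost without RD library 3 (-0.28, adjusted p = 0.0737). The MG IP had 5347, 6087, 6052 and 4763 CPM in RD, against 6363, 7342, 6558 and 6799.6 CPM in ND. These groups did not overlap either, but the gene was not called (-0.28, adjusted p = 0.345), except with the 2 groups alone (adjusted p = 0.0258). The 3 Inputs gave -0.45 to -0.62, each called.

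Because Sparcl1 and Sparc are abundant in astrocytes, the astrocyte marker list is given beside them. Its summed level was 13400 to 18700 CPM in RD and 21600 to 27300 CPM in ND in the MG IP (2 of 12 markers lower), and 14900 to 16200 CPM in RD and 19400 to 23700 CPM in ND in the n_ZFP_a_Rpl IP (4 lower, 1 higher). In the hSyn IP it was 2580 to 3140 CPM in RD and 5480 to 8110 CPM in ND, with 11 of 12 lower. It was 1590 to 2150 CPM in RD and 3110 to 4100 CPM in ND in the n_ZFP_n_Rpl IP, with 9 lower and 1 higher. The Inputs had 9 to 11 of the 12 lower. In all of these libraries fewer cells of a type and less RNA per cell cannot be told apart. The part of the lower astrocyte RNA in the neuron IPs in the results for Sparc, Sparcl1, Thbs4 and Mertk was not tested.

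**Figure D3:**
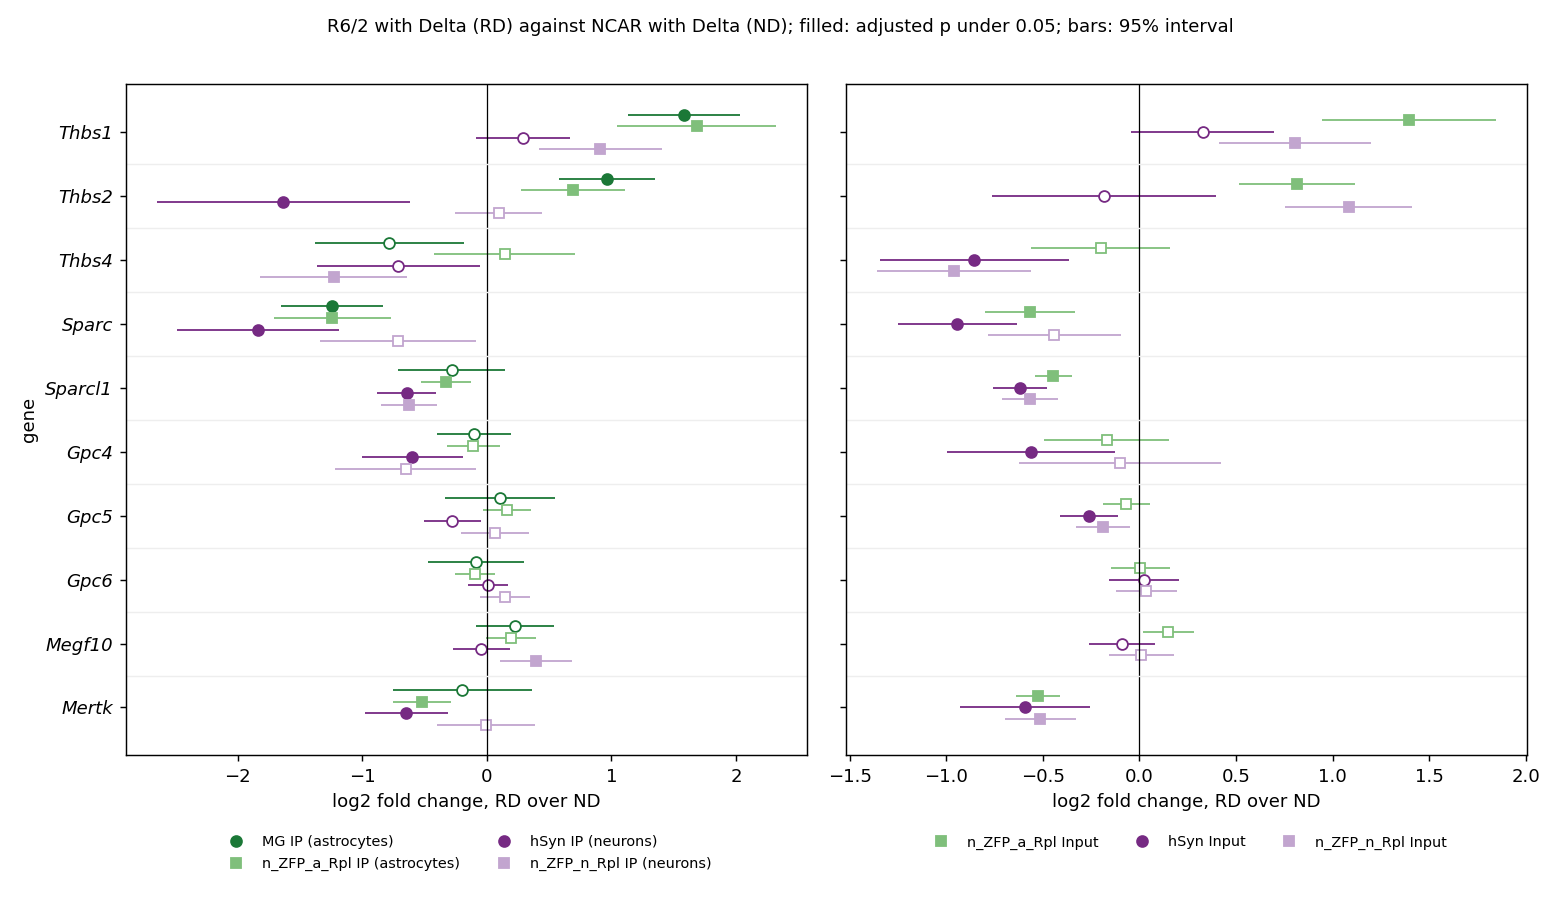
Log2 fold change of RD over ND for each gene, in the 4 IPs (left panel) and the 3 Inputs (right panel). Bars are 95% intervals and filled points have an adjusted p under 0.05; Thbs1 and Thbs2 lie to the right of 0 in both astrocyte IPs, and Sparc and Sparcl1 lie to the left of 0 in every set and fraction.

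Of the glypicans, Gpc6 was not called between RD and ND in any of the 4 IPs or 3 Inputs. Gpc5, which is abundant in astrocytes, was called in no IP. In the hSyn IP it had -0.28 (adjusted p = 0.0605) and was called by DESeq2 (0.0381), with the 2 groups alone (0.0117) and without ND library 2 (0.0323). Gpc5 was lower in RD in the hSyn Input (log2 change -0.26 ± 0.08, adjusted p = 0.0104) and the n_ZFP_n_Rpl Input (-0.19 ± 0.07, adjusted p = 0.0362). The hSyn Input call was lost without RD library 3 (adjusted p = 0.0706). The n_ZFP_n_Rpl Input call was lost without any of 5 libraries, ND 2 and 3 and RD 1, 2 and 4 (adjusted p up to 0.116), and with the 2 groups alone (0.0701).

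Gpc4 had 2.86, 2.17 and 1.75 CPM in the hSyn RD libraries, against 3.52, 2.61, 3.34, 4.31 and 3.29 CPM in ND. RD library 1 lay above the lowest ND library. The log2 change was -0.60 ± 0.21 (adjusted p = 0.0232), and the call was lost without RD library 2 (adjusted p = 0.074), RD library 3 (-0.44, adjusted p = 0.128) or ND library 3 (adjusted p = 0.0585). The hSyn Input gave -0.56 ± 0.22 (adjusted p = 0.0493), which was lost without any of 5 libraries (ND 0, 4 and 5, RD 1 and 3; adjusted p up to 0.154) and with no filter (adjusted p = 0.0625).

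Gpc4 in the n_ZFP_n_Rpl IP had 6.91, 7.06, 4.21 and 4.38 CPM in RD, against 10.8, 12.5, 4.54 and 7.64 CPM in ND. Libraries 3 and 4 were the lower ones in both groups. Slc17a7, a marker of cortical excitatory neurons, was also lower in libraries 3 and 4 than in 1 and 2 of both groups, with 400.1, 478, 224 and 181 CPM in RD and 894, 711, 249.6 and 389.8 CPM in ND. The log2 change of Gpc4 was -0.65 (adjusted p = 0.0711), and -0.74 without libraries 3 and 4 of both groups (adjusted p = 0.0436). It was also called by DESeq2 (adjusted p = 0.0361), in the replicate block (-0.62, adjusted p = 0.0264) and without ND library 3 alone (-0.87, adjusted p = 0.00936). The part of cortical neuron RNA in this result was not tested.

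Of the engulfment receptors, Mertk was lower in RD in 2 IPs. The n_ZFP_a_Rpl IP had 88.7, 75.9 and 74.9 CPM in RD, against 114, 127, 115 and 102 CPM in ND. All RD libraries lay below ND, with a log2 change of -0.52 ± 0.12 (adjusted p = 0.00234). The hSyn IP had 15.3, 14.6 and 14.5 CPM in RD, against 22.3, 17.6, 19.1, 32.2 and 24.6 CPM in ND. The groups did not overlap and the log2 change was -0.65 ± 0.17 (adjusted p = 0.00501).

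The MG IP did not show lower Mertk at this precision, with 76.4, 122, 103 and 73.9 CPM in RD and 81.8, 114, 130.4 and 103 CPM in ND (-0.20, adjusted p = 0.633). Nor was it called in the n_ZFP_n_Rpl IP (-0.01, adjusted p = 0.979). All 3 Inputs had lower Mertk in RD, by -0.53 ± 0.06 (n_ZFP_a_Rpl, adjusted p = 5.92e-07), -0.51 ± 0.09 (n_ZFP_n_Rpl, adjusted p = 0.000286) and -0.59 ± 0.17 (hSyn, adjusted p = 0.012, lost without RD library 2 at 0.0531). In the Inputs, microglial markers summed to 440 to 495 CPM in RD and 606 to 799 CPM in ND in the n_ZFP_n_Rpl set, with 9 of 10 lower. In the hSyn set they summed to 647 to 782 CPM in RD and 853 to 1670 CPM in ND, without overlap and with 6 of 10 lower, and in the n_ZFP_a_Rpl set to 501 to 576 CPM in RD and 507 to 605 CPM in ND, with 1 lower. Their part in the lower Mertk of the Inputs was not tested.

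Megf10, a receptor for material marked for removal, was the 1 engulfment receptor called higher. In the n_ZFP_n_Rpl IP it had 45.2, 32.4, 39.0 and 53.9 CPM in RD, against 27.3, 28.5, 35.7 and 38.0 CPM in ND. The groups overlapped in RD library 2. Megf10 was called at a log2 change of 0.40 ± 0.15 (adjusted p = 0.0345), and the call was lost without ND library 1, ND library 2, RD library 1 or RD library 4 (adjusted p up to 0.134) and with the 2 groups alone (0.0812). In the n_ZFP_a_Rpl IP Megf10 had 155, 165 and 154 CPM in RD, against 132, 144, 153 and 122 CPM in ND. These groups touched without overlap and the gene was not called (0.20, adjusted p = 0.136).

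In the Inputs, the n_ZFP_a_Rpl set had 2 of the 10 genes higher and 3 lower, where 24.4% and 24.7% of all genes were. The hSyn Input had 0 higher and 6 lower (22.5% and 21.6% of all genes), and the n_ZFP_n_Rpl Input 2 higher and 4 lower (26.1% and 23.7%).

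Differences between sets and fractions were tested directly. The RD against ND difference was larger in the MG IP than in the hSyn IP for Thbs1, by 1.28 ± 0.30 on the log2 scale (adjusted p = 0.0111), and for Thbs2, by 2.59 ± 0.54 (adjusted p = 0.00512), where 3.22% of all genes were called higher. Both were kept when each library was left out and in every other alternative. Between the n_ZFP_a_Rpl and n_ZFP_n_Rpl IPs, Thbs4 alone differed, by 1.37 ± 0.43 (adjusted p = 0.0308, 6.3% of all genes called higher). The Thbs4 difference was lost without any of 5 libraries (n_ZFP_a_Rpl ND 2 and RD 3, n_ZFP_n_Rpl ND 3, RD 1 and RD 4), and was 1.10 without n_ZFP_a_Rpl RD 3 (adjusted p = 0.115). With the library number as a replicate block, Mertk was added (-0.57, adjusted p = 0.0486).

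The IP was also tested beyond its own Input. In the n_ZFP_n_Rpl set Thbs2 was higher in RD in the Input and not in the IP, a difference of -1.04 ± 0.25 (adjusted p = 0.0215, 2.48% of all genes called lower). In the fit without pairing it was lost without any of 9 of the 16 libraries involved (Input ND 3 and 4 and RD 1 and 2, IP ND 1, 2 and 4 and RD 3 and 4, adjusted p up to 0.0908). The Thbs2 call was kept in every other setting, the paired fit included. With IP and Input paired (replicate block), 3 of the 10 genes were called in this set, where 3877 of 16178 genes were. The paired fit adds Gpc4 (-0.61, adjusted p = 0.00185) and Megf10 (0.33, adjusted p = 0.0458). In the n_ZFP_a_Rpl set no member was called (1.86% of all genes). There 2 of the 10 and 2169 of 16255 genes had an unadjusted p under 0.05. Gpc5 was called in the paired fit of that set (0.27, adjusted p = 0.0454), where 933 of 16255 genes were. The hSyn set had none either by the main edgeR fit (1.01% of all genes) or DESeq2. In that set 2 of the 10 and 1650 of 16332 genes had an unadjusted p under 0.05. In the replicate block Thbs2 was called there (-1.58, adjusted p = 0.00586), where 651 of 16332 genes were. Library numbers do not pair IP and Input throughout in that set, so this call rests on an unsure pairing.

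RZ was compared with RD to ask what changed with the ZFP in R6/2. These comparisons share the RD libraries with those above. Calls of members came mainly in the n_ZFP_a_Rpl IP, where 4 of the 10 genes were lower in RZ and none higher, and 14.7% of all genes were lower. The direct test of that IP against the MG IP and its interaction, both given below, called no member by edgeR. The median log2 change of the 10 was -0.34, against -0.00 for all genes.

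In that IP Gpc5 had 115, 95.5, 111 and 110.4 CPM in RZ, against 146, 147 and 149.9 CPM in RD. All RZ libraries lay below all RD libraries, with a log2 change of -0.45 ± 0.10 (adjusted p = 0.00246). Thbs4 had 11.2, 12.5, 20.1 and 17.7 CPM in RZ, against 23.9, 28.2 and 42.3 CPM in RD. The groups were apart (-1.03 ± 0.29, adjusted p = 0.0158), and the call was lost without RD library 3 (-0.76, adjusted p = 0.0849).

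Thbs1 had 1.39, 3.39, 3.04 and 3.14 CPM in RZ, against 6.06, 3.37 and 7.62 CPM in RD. RZ library 2 and RD library 2 were nearly equal. Thbs1 was called lower (log2 change -1.05 ± 0.32, adjusted p = 0.019), and the call was lost without RD library 1 (adjusted p = 0.0553) or RD library 3 (-0.78, adjusted p = 0.108) and with the 2 groups alone (0.0503). Sparcl1 had 2758, 2337, 2825 and 2589 CPM in RZ, against 3411, 3376 and 3079 CPM in RD. These did not overlap (-0.32 ± 0.10, adjusted p = 0.0231), and the call was lost without RD library 1, RD library 2 or RZ library 2 (adjusted p up to 0.0767). Sparc had 103, 75.7, 141 and 114 CPM in RZ and 100.1, 184 and 131 CPM in RD, with overlap and no call. Mertk had 78.2, 67.4, 56.1 and 56.3 CPM in RZ, against 88.7, 75.9 and 74.9 CPM in RD, and was not called (-0.31 ± 0.12, adjusted p = 0.055). It was called by DESeq2 (0.0213), with RLE factors (0.0486), in the replicate block (-0.26, adjusted p = 0.0322) and without RZ library 1 (-0.41, adjusted p = 0.00816). Gpc6 (-0.15, adjusted p = 0.176) and Megf10 (-0.21, adjusted p = 0.126) were not called either, although no RZ library of them reached the RD range, and were called with the 2 groups alone (0.0374 and 0.0414).

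Beside these lower values, 11 of 12 astrocyte markers were lower in RZ in the same IP (summed level 12100 to 13200 CPM in RZ and 14900 to 16200 CPM in RD), and 9 of 9 markers of striatal projection neurons were higher (5460 to 6180 CPM in RZ and 1970 to 2660 CPM in RD). Their part in the lower members was not tested. In the Input of that set Thbs4 was the only member called, with 7.33, 4.30, 6.21 and 5.07 CPM in RZ, against 6.86, 9.07 and 9.98 CPM in RD. RZ library 1 lay above RD library 1. The log2 change was -0.59 ± 0.19 (adjusted p = 0.0417, 5.03% of all genes lower), and was lost without any of 5 libraries (RD 2 and 3, RZ 2, 3 and 4, adjusted p up to 0.175), with no filter (0.0578) and with the 2 groups alone (0.058).

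In the n_ZFP_n_Rpl IP Sparcl1 was higher with the ZFP, at 629.7, 758, 711 and 965 CPM in RZ, against 564, 631, 588 and 477 CPM in RD. RZ library 1 lay just below RD library 2, so the groups overlapped by that pair. The log2 change was 0.44 ± 0.11 (adjusted p = 0.0153, 9.47% of all genes higher), and the call was lost without RD library 4 (0.36, adjusted p = 0.0533). Of the 12 astrocyte markers 2 were higher there (summed level 2050 to 3090 CPM in RZ and 1590 to 2150 CPM in RD), and their part was not tested. For Sparcl1 the 2 sets thus had calls of opposite direction, and the difference between them was not tested.

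No member was called between RZ and RD in the MG IP, the hSyn IP, the hSyn Input or the n_ZFP_n_Rpl Input by edgeR, where 0.0782%, 0.0391%, 0% and 3.32% of all genes were called. Of the 10 genes 0, 3, 0 and 2 had an unadjusted p under 0.05, and DESeq2 called none. Over all genes, 2760 of 15342, 1101 of 15347, 628 of 16090 and 2650 of 15821 had such a p. In the hSyn Input DESeq2 called 5 of all genes. In the hSyn IP, Thbs1 had 1.99, 2.14, 2.35 and 2.19 CPM in RZ, against 3.74, 2.90 and 3.46 CPM in RD. The groups did not overlap. Nor did those of Sparcl1, Gpc5, Megf10 and Mertk, all higher in RZ. The share of all genes without overlap was not taken. Neither Thbs1 (-0.63, adjusted p = 0.571) nor Mertk (0.54, adjusted p = 0.571) passed. With only the RZ and RD libraries in the fit, Mertk did (adjusted p = 0.0392). The RZ against RD change in the n_ZFP_a_Rpl IP was tested against that in the MG IP. No member differed by edgeR (13% of all genes called) or DESeq2. Sparc, 1 of the 10, had an unadjusted p under 0.05, as did 4287 of 15594 genes.

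**Figure D4:**
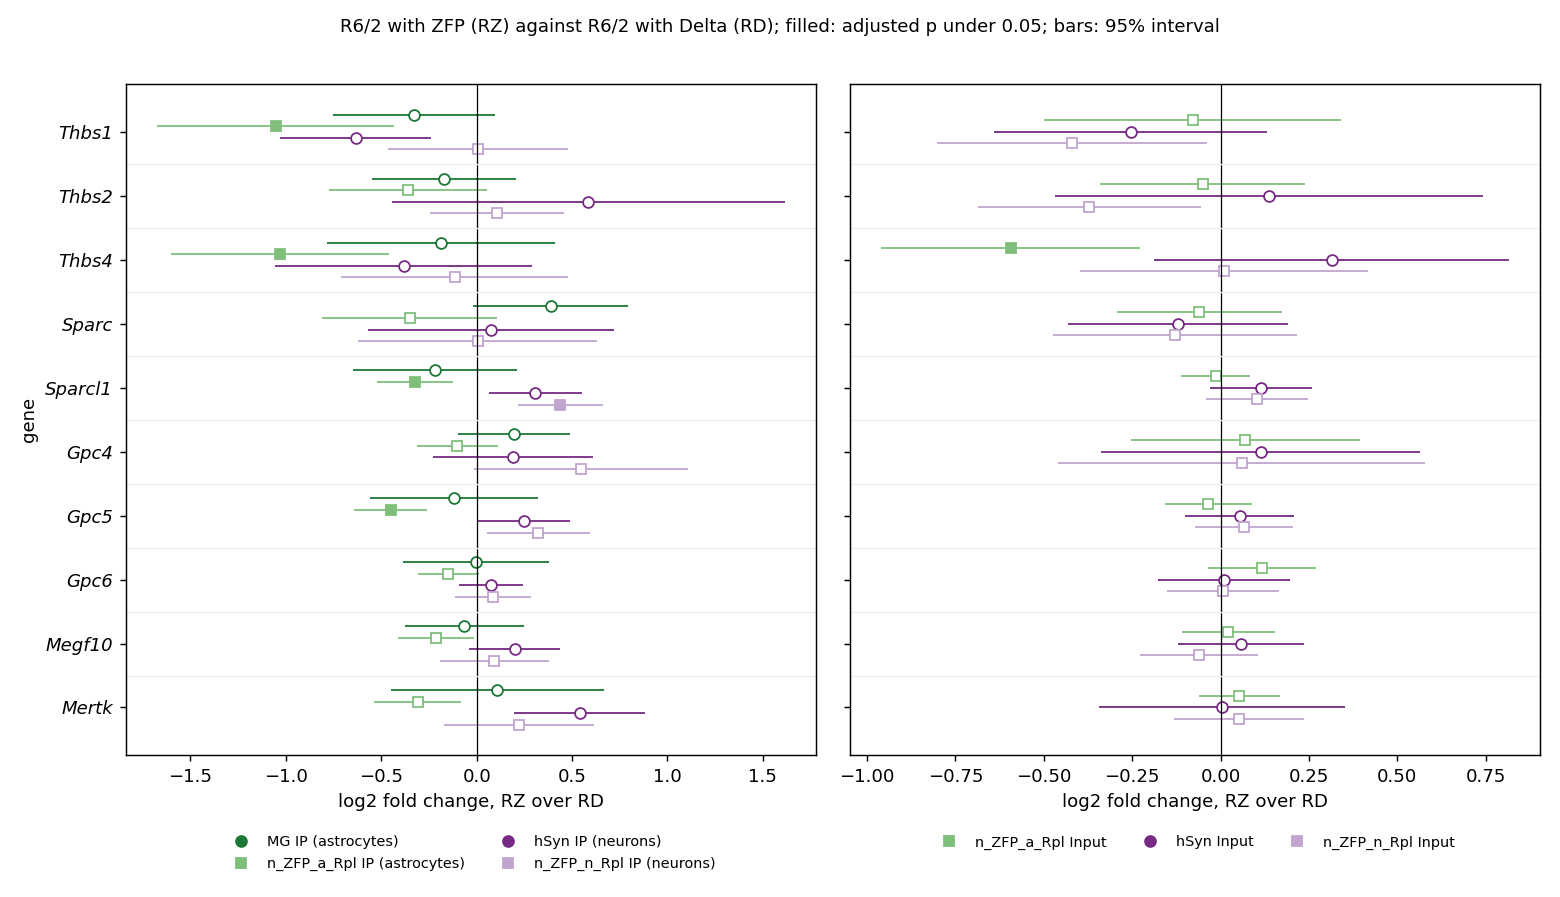
Log2 fold change of RZ over RD for each gene, in the 4 IPs (left panel) and the 3 Inputs (right panel). Bars are 95% intervals and filled points have an adjusted p under 0.05; the filled points are Thbs1, Thbs4, Sparcl1 and Gpc5 in the n_ZFP_a_Rpl IP, Sparcl1 in the n_ZFP_n_Rpl IP and Thbs4 in the n_ZFP_a_Rpl Input.

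In NCAR mice the ZFP was set against Delta. Mertk in the n_ZFP_n_Rpl IP was the 1 member called, with 15.3, 13.8, 14.1 and 19.5 CPM in NZ, against 8.81, 9.71, 8.63 and 11.0 CPM in ND. All NZ libraries lay above all ND libraries, with a log2 change of 0.72 ± 0.20 (adjusted p = 0.041, 2.86% of all genes higher). The call was lost when any 1 of the 8 libraries was left out (adjusted p up to 0.105) and with no filter (0.0559). DESeq2 called 5 members there, beside 1751 of 15126 genes. They were Mertk, Thbs2 (0.54), Sparcl1 (0.33), Gpc5 (0.43) and Thbs4 (-0.91). Beside Mertk, astrocyte markers were higher in 3 of 12 cases (summed level 4090 to 5290 CPM in NZ and 3110 to 4100 CPM in ND), and their part was not tested.

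The other NZ against ND comparisons called 0 members by edgeR and by DESeq2, where 7.05% (MG IP), 0.0261% (hSyn IP), 0.00622% (hSyn Input), 2.07% (n_ZFP_a_Rpl IP), 0.957% (n_ZFP_a_Rpl Input) and 3.03% (n_ZFP_n_Rpl Input) of all genes were called. At an unadjusted p under 0.05 there were 2, 1, 0, 0, 0 and 2 members in that order. Over all genes there were 4074 of 15342, 580 of 15347, 525 of 16090, 2846 of 15246, 1863 of 15780 and 2914 of 15821. The interaction, which asks whether the ZFP difference in R6/2 differs from that in NCAR, called 0 members by edgeR in the 4 IPs. It called 0% of all genes in the MG and hSyn IPs, 16.5% in the n_ZFP_a_Rpl IP and 13.1% in the n_ZFP_n_Rpl IP. For the 2 IPs at 0%, 1143 genes (MG) and 646 genes (hSyn) had an unadjusted p under 0.05, and DESeq2 called 52 and 7 genes. At an unadjusted p under 0.05 there were 1, 0, 1 and 0 members. In the n_ZFP_a_Rpl and n_ZFP_n_Rpl IPs, 4556 of 15246 and 3986 of 15126 genes had such a p. Gpc5 in the n_ZFP_a_Rpl IP came nearest, at -0.37 (adjusted p = 0.0714), and was called by DESeq2 (adjusted p = 0.0244), in the replicate block (0.042) and without ND library 3, NZ library 2 or NZ library 4 (0.0319 to 0.0406).

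The genes that the members act with were followed in lists of known partners, beside 17.4% of all genes higher and 16.2% lower in the MG IP, 20.6% and 24.7% in the n_ZFP_a_Rpl IP, 25.4% and 25.5% in the hSyn IP and 25.2% and 26.2% in the n_ZFP_n_Rpl IP. Of 18 tested thrombospondin and SPARC partners (receptors, neurexins, neuroligins and relatives), RD against ND called 1 higher and 11 lower in the MG IP, 3 and 13 in the n_ZFP_a_Rpl IP, 2 and 8 in the hSyn IP, and 1 and 8 in the n_ZFP_n_Rpl IP. Their medians were -0.31, -0.37, -0.22 and -0.15, against 0.04, -0.00, -0.00 and -0.00 for all genes. Smoc1, a SPARC relative, was higher in all 4 (log2 changes 1.01, 1.07, 0.85 and 1.42). Spock3, another relative (-0.86, -0.67, -0.87 and -0.85), and the calcium channel subunit gene Cacna2d3 (-1.06, -1.02, -0.98 and -1.03) were lower in all 4. Cacna2d1, the thrombospondin receptor, was higher in the hSyn IP (0.37 ± 0.06, adjusted p = 0.000138).

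Of 12 glypican partners (AMPA receptor subunits, pentraxins and postsynaptic receptors), 0 were higher and 8 lower in the MG IP, 0 and 8 in the n_ZFP_a_Rpl IP, 1 and 6 in the hSyn IP, and 1 and 7 in the n_ZFP_n_Rpl IP. The pentraxin gene Nptx2, whose product gathers AMPA receptors, fell most among those named, with log2 changes of -2.22, -1.68, -2.32 and -2.56. Nptx1 had -1.17, -1.20, -1.27 and -1.26. In the same 4 IPs the 9 striatal projection neuron markers had 8 lower each. Their part in the partner results was not tested.

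Of 23 engulfment partners, 3 were higher and 6 lower in the MG IP, 7 and 7 in the n_ZFP_a_Rpl IP, 5 and 12 in the hSyn IP, and 7 and 8 in the n_ZFP_n_Rpl IP. Except for the 12 lower in the hSyn IP, these counts lie near the shares over all genes. Abca7, a lipid transporter linked to phagocytosis, was higher in all 4 (0.92, 1.00, 1.70 and 1.36). Abca1, a cholesterol exporter that acts in the Megf10 pathway, was higher in the MG, n_ZFP_a_Rpl and n_ZFP_n_Rpl IPs (0.64, 0.89 and 0.77). Megf11, the closest relative of Megf10, was lower in the same 3 (-1.52, -1.65 and -1.50), and Tyro3, of the Mertk receptor family, in both astrocyte IPs (-0.72 and -1.01). Mfge8, a bridge between dying cells and integrins, was lower in both neuron IPs (-1.01 and -1.16).

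Of 11 other astrocyte synapse factors, 1 was higher and 3 lower in the MG IP, 1 and 4 in the n_ZFP_a_Rpl IP, 1 and 7 in the hSyn IP, and 1 and 6 in the n_ZFP_n_Rpl IP. Ncan, the matrix proteoglycan neurocan, was lower in RD in the MG IP (-0.43) and the n_ZFP_a_Rpl IP (-0.58). Chrdl1, which encodes a secreted factor of synapse maturation, was lower in the hSyn IP (-0.93), and Il33, a cytokine gene, in both neuron IPs (-1.10 and -1.05).

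With the ZFP in R6/2 the partners moved most in the n_ZFP_a_Rpl IP. There 11 thrombospondin and SPARC partners were higher in RZ and 1 lower, 6 glypican partners higher and 0 lower, 3 engulfment partners higher and 8 lower, and 1 other factor higher and 2 lower, where 19.1% of all genes were higher and 14.7% lower. The 9 of 9 higher projection neuron markers of that IP stand beside these counts, and their part was not tested. Nptx2 (1.18 ± 0.19, adjusted p = 0.000224), Megf11 (0.98 ± 0.11, adjusted p = 1.12e-05), Cacna2d3 (0.86 ± 0.09, adjusted p = 5.39e-06), Spock3 (0.77 ± 0.07, adjusted p = 1.63e-06) and Tyro3 (0.74 ± 0.10, adjusted p = 7.35e-05) were higher. Abca1 (-0.61 ± 0.07, adjusted p = 1.48e-05) and Il33 (-0.63 ± 0.16, adjusted p = 0.00845) were lower. In the MG and hSyn IPs a single partner was called, Ncan, lower in RZ in both (-1.03 ± 0.12, adjusted p = 0.00209, and -0.43 ± 0.07, adjusted p = 0.0496).

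Likeness of pattern was described by Pearson's r over the 16 IP group means, each centred on its set, among 10800 genes with a mean of at least 5 CPM. The groups share libraries, depth and cell makeup within a set, so r has no p here. Sparcl1 was most like Ndrg2 (0.984), an astrocyte gene, and Sparc most like Cxcl14 and Mgat5 (0.963 each). Gpc4 was most like Fcgrt (0.984), Gpc6 like Clmn (0.959), Gpc5 like Pard3b (0.89), Mertk like Gstk1 (0.924), Megf10 like Rab31 (0.921), Thbs2 like Cdk5rap2 (0.927) and Thbs4 like Dazap2 (0.882). Thbs1 was too low for this step. Among themselves, Sparcl1 and Mertk had r = 0.808, Sparc and Sparcl1 0.801 and Sparc and Mertk 0.795, while Thbs1 and Sparc had -0.646.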

How the data were processed

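The authors deposited 1 table of raw read counts per gene symbol for 110 libraries, and per the submitters' processing notes reads were aligned with STAR to mm10 and counted with HTSeq (the sources used here give no version, option or strand setting). Per the labels' protocols a TruSeq kit was used. Of its 24060 rows, 4 share a symbol with another and were not used. It has a row for mouse Htt and none for the human transgene.

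The 10 genes, the partner and marker lists and the tests were chosen with earlier results of these data known. All 10 genes are named. Of each partner list, up to 2 genes per direction are named in the main IP comparisons, those with the largest change among genes past the threshold with a mean of at least 5 CPM. Slc17a7 was named after its values were seen.

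Counts were analysed in R 4.3.3 with edgeR 4.0.16 (filterByExpr with minimum count 10 and minimum total 15, TMM scaling, robust quasi-likelihood test, Benjamini-Hochberg at 0.05). Each set and fraction was 1 fit of 4 conditions, so that all conditions share an estimate of the spread. Models over IP and Input, or over both sets, gave IP against Input (glmTreat, above 2-fold) and the differences between sets and fractions. In all 35 comparisons were made, each adjusted over all genes tested. Standard errors were taken as the log2 fold change over its test statistic. Without a stated strand setting, reads of overlapping or antisense genes cannot be told apart.

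Alternatives were DESeq2 1.42.0, RLE factors, no filter, a fit with the library number as a replicate block, a fit of the 2 groups alone, no minimum fold, each library left out in turn and, added after seeing the data, leaving out n_ZFP_n_Rpl RD and ND libraries 3 and 4. Library numbers pair IP and Input in the n_ZFP_a_Rpl set (r of deviations from group means 0.4 to 0.6, 15 pairs) and the n_ZFP_n_Rpl set (0.45 to 0.68, 16 pairs), as the data and not the labels show. In the hSyn set r ran from -0.19 to 0.64 for like numbers (median 0.43, 14 pairs) and from -0.47 to 0.56 for unlike numbers. Library numbers thus do not pair that set throughout, and whether other numbers pair it was not tested. Across conditions the median r per fit was -0.03 to 0.061, so conditions are not paired. In fits of 1 fraction the replicate block thus rests on numbers that pair nothing. Its calls there show sensitivity to the model and add no support. On simulated counts with 200 genes changed at least 2-fold and the same spread for every gene, edgeR recovered 96% for RD against ND in the MG IP. It recovered 94% for RZ against RD in the n_ZFP_a_Rpl IP and 74.5% for the MG and hSyn difference. In the simulated MG IP comparison 5.42% of the edgeR calls and 13.2% of the DESeq2 calls were unchanged genes. Smaller changes, as many here are, were not simulated.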

Additional observations from a re-analysis of the deposited data

Results flagged for a closer look

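Of 240 groups of 4 or more libraries, 1 for each gene, set, fraction and condition, 13 (5.42%) had a library far from the rest by Dixon's criterion, and chance gives about 1 in 20. Of Thbs1, hSyn Input RZ library 3 had 4.82 CPM, against 3.35 CPM for the next. Of Thbs2, MG IP NZ library 3 had 8.65 CPM (next 5.65) and hSyn IP NZ library 1 had 13.1 CPM (next 4.97). Of Sparc, n_ZFP_n_Rpl IP library 4 stood high in RZ (59.0 CPM, next 23.6) and in RD (44.5 CPM, next 27.5). Sparcl1 was at 1820 CPM in hSyn IP NZ library 1 (next 1220). Low libraries were Gpc4 in hSyn Input RZ library 4 (1.03 CPM, next 1.83), Gpc5 in n_ZFP_a_Rpl Input NZ library 4 (39.4 CPM, next 44.9) and Gpc6 in hSyn Input RZ library 3 (12.6 CPM, next 14.1). Megf10 was at 232 CPM in MG IP NZ library 2 (next 152). Mertk was high in hSyn IP RZ library 2 (24.2 CPM, next 20.8), n_ZFP_n_Rpl Input ND library 1 (55.4 CPM, next 50.5) and n_ZFP_n_Rpl Input NZ library 4 (58.3 CPM, next 47.0).

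The RD against ND difference itself differed in 4 tests. Thbs1 (1.28 on the log2 scale) and Thbs2 (2.59) differed between the MG and hSyn IPs, Thbs4 (1.37) between the n_ZFP_a_Rpl and n_ZFP_n_Rpl IPs, and Thbs2 (-1.04) between IP and Input of the n_ZFP_n_Rpl set.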

How the results depend on the processing

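Over the 350 values of 10 genes in 35 comparisons, no alternative reversed a called direction. Of the 61 calls, 41 were kept under every alternative and 18 were lost when at least 1 library was left out, while 45 uncalled values were called under at least 1 alternative. DESeq2 kept the side of the threshold for 339 values, RLE factors for 348, no filter for 347 and the replicate block for 334. With only the 2 groups compared, 198 of 210 kept it. The cause of the changes below was not tested, except that no minimum fold and fewer libraries change the test itself.

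Counts of called members moved as follows. With only the 2 groups fitted, RD against ND in the MG IP had 5 (3 in the full fit, with Thbs4 and Sparcl1 added), RZ against RD in the hSyn IP 1 (0) and RZ against RD in the n_ZFP_a_Rpl Input 0 (1). Of all genes, 5664 of 14889, 10 of 14803 and 2384 of 15424 were called in those fits. By DESeq2, the n_ZFP_a_Rpl interaction had 1 (0) and NZ against ND in the n_ZFP_n_Rpl IP 5 (1), beside 3024 of 15246 and 1751 of 15126 genes. With no filter, RZ against RD in the n_ZFP_a_Rpl Input and NZ against ND in the n_ZFP_n_Rpl IP had 0 (1 each), beside 2376 of 20259 and 867 of 19910 genes. With a replicate block, the n_ZFP_a_Rpl interaction had 1 (0), IP beyond Input had 1 for hSyn (0), 1 for n_ZFP_a_Rpl (0) and 3 for n_ZFP_n_Rpl (1), and n_ZFP_a_Rpl beyond n_ZFP_n_Rpl 2 (1). The numbers over all genes, in that order, were 2430 of 15246, 651 of 16332, 933 of 16255, 3877 of 16178 and 2348 of 15656. In the replicate block, the hSyn IP calls of Thbs2 (adjusted p = 0.0633) and Gpc4 (0.0692) and the hSyn Input call of Gpc4 (0.147) between RD and ND were lost. With no minimum fold, IP against Input called 8 for hSyn (1), 10 for n_ZFP_a_Rpl (5) and 8 for n_ZFP_n_Rpl (2). Most genes were called in that setting, 12861 of 16332, 13796 of 16255 and 13474 of 16178, so these counts are near the background.

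With 1 library left out at a time, RD against ND had 3 to 6 called members in the hSyn IP and 3 to 5 in the n_ZFP_a_Rpl IP, and RZ against RD 2 to 5 in the n_ZFP_a_Rpl IP. It was 0 to 1 for RZ against RD in the n_ZFP_a_Rpl Input and the n_ZFP_n_Rpl IP, NZ against ND in the n_ZFP_n_Rpl IP and Input, the interactions of the n_ZFP_a_Rpl and n_ZFP_n_Rpl IPs, IP beyond Input in the n_ZFP_n_Rpl set and n_ZFP_a_Rpl beyond n_ZFP_n_Rpl. The shares of all genes called in these fits are not given here, so the counts show only how far the calls moved.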

Other observations

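MG IP NZ library 2 stood above the other 3 NZ libraries of its set for 7 of the 10 genes at once: Sparc (673 CPM), Sparcl1 (9473 CPM), Gpc4 (14.9 CPM), Gpc5 (292 CPM), Gpc6 (52.6 CPM), Megf10 (232 CPM) and Mertk (227 CPM). The next NZ libraries had 554, 5487, 13.2, 170.3, 35.5, 152 and 128 CPM in that order. The summed level of the 12 astrocyte markers ran from 18600 to 35600 CPM over the 4 libraries. For how many of all genes library 2 was highest was not counted. NZ against ND in the MG IP called none of the 10 genes.

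Between the conditions of the n_ZFP_n_Rpl IP, library 4 of RZ also had the highest Thbs4 (9.95 CPM), Sparcl1 (965 CPM), Gpc5 (26.6 CPM) and Mertk (16.6 CPM) of its group, beside its Sparc of 59.0 CPM. For how many of all genes that library was highest was not counted.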
